A study of Homo sapiens with 36 samples.

Results

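γH2AX was profiled before and after aphidicolin in a pair of human cell lines, K562 and a line named 2A3, in 4 of the series' 36 samples (22 of the 36 have a list of enriched regions). The 4 libraries carry 1 style of title, called set 3 here, and were taken by those titles: untreated K562, K562 with aphidicolin, untreated 2A3 and 2A3 with aphidicolin, with 1 library each. The cell line served as the block, so a treatment effect is a change seen in both lines. K562 is an established chronic myeloid leukaemia line. The labels name 2A3 only as a cell line, and neither its origin nor any change to its macroH2A is given in the sources used here, nor are the dose and duration of aphidicolin in set 3. The series as a whole asks how macroH2A1.2 and γH2AX lie along the genome before and after replication stress. Its 8 other γH2AX libraries, all from K562 (sets 1 and 2, each with 2 untreated and 2 aphidicolin libraries), share no library with set 3 and are used below as a separate measurement. A number, 0.5, stands without a unit in the aphidicolin titles of set 1, and those of set 2 carry no dose. Nothing in the labels says that numbered libraries were grown as separate cultures, and the spread behind a p-value may therefore be technical only.

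Aphidicolin inhibits the replicative DNA polymerases, which slows replication forks and leaves stretches of DNA under-replicated. H2AX is a histone H2A variant that checkpoint kinases phosphorylate around stalled forks and double-strand breaks, and the phosphorylated form, γH2AX, spreads along the chromatin on both sides of the lesion. Sites that break under mild polymerase inhibition are known as common fragile sites. MacroH2A1 is a larger H2A variant that carries a macro domain, and alternative splicing of its transcript gives the isoform macroH2A1.2. Both were profiled in K562 in other sets of the series.

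Each library is a list of islands, stretches of the hg19 genome in which reads were enriched, with the number of reads in each. Chromosomes 1 to 22 and X, a span of 3035 Mb, were analysed. Reads inside islands came to 2.41e6 in untreated K562, 3.20e6 in K562 with aphidicolin, 4.88e6 in untreated 2A3 and 6.03e6 in 2A3 with aphidicolin. In the K562 libraries of sets 1 and 2 they ranged from 2.84e6 to 26.5e6. The lists give no total of sequenced reads, so the depth behind an island is unknown, and nothing is listed outside islands. Reads in islands were higher with aphidicolin in both lines, and the part of sequencing depth in the results below was not tested.

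More of the genome lay inside γH2AX islands after aphidicolin in both lines. In K562 the covered length went from 38.6 Mb, 1.27% of the span, to 64.6 Mb, 2.13%, which is 1.67 times the untreated value. In 2A3 it went from 91.0 Mb, 3.0%, to 135 Mb, 4.45%, or 1.48 times. Both aphidicolin lists lay above the untreated list of their line, while untreated 2A3 lay above both K562 lists. Islands were more numerous as well as longer. Their number went from 6693 to 8504 in K562 and from 13967 to 18033 in 2A3. The median island lengthened from 3400 to 5200 bp in K562 and from 4000 to 5200 bp in 2A3. The reads per kb of island went the other way, from 62.3 to 49.6 in K562 and from 53.7 to 44.7 in 2A3. The mean log2 ratio of covered length over the 2 lines was 0.66, with 0.74 in K562 and 0.57 in 2A3. An exact permutation of the treatment labels within each line, two-sided, gave p = 0.5, which is the smallest that 4 assignments allow.

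**Figure D1:**
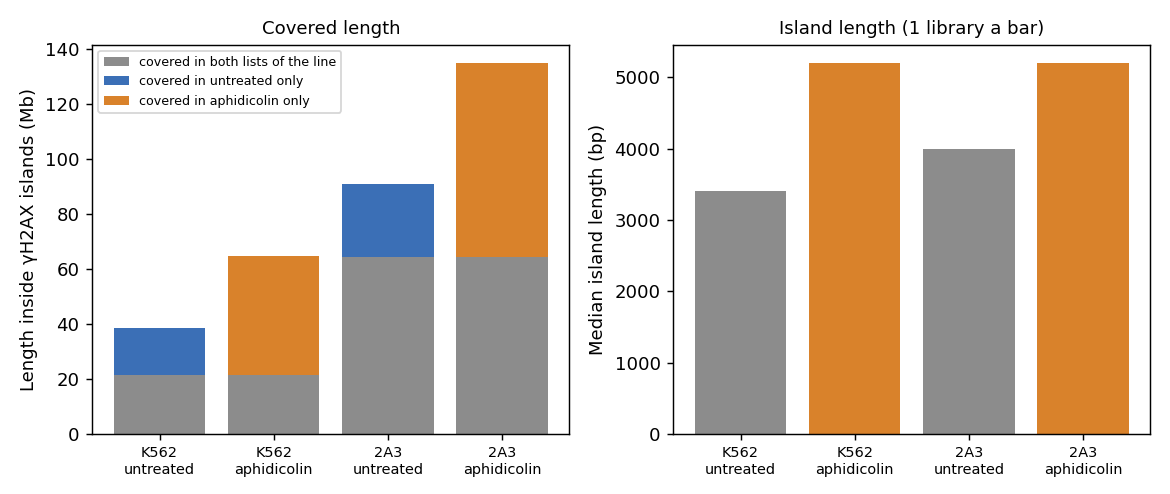
Left, length inside γH2AX islands (Mb) for each library of set 3, with grey for bases covered in both lists of a line, blue for bases covered only without aphidicolin and orange for bases covered only with it. Right, median island length (bp), 1 library a bar. The orange portion (43.1 Mb in K562 and 70.6 Mb in 2A3) is larger than the blue one (17.1 and 26.7 Mb) in both lines.

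Both gain and loss of γH2AX were seen in each line. In K562, 43.1 Mb was covered only with aphidicolin (gained), 21.5 Mb in both lists (kept) and 17.1 Mb only without it (lost). In 2A3 the gained, kept and lost lengths were 70.6, 64.3 and 26.7 Mb. The untreated pattern was thus kept over 55.6% of its length in K562 and 70.7% in 2A3. Of the 8504 aphidicolin islands in K562, 2787 (32.8%) touched an untreated island, and in 2A3 8987 of 18033 (49.8%) did. Gained length lay nearer to untreated islands than uncovered genome in general: 29.1% of it was within 10 kb of an untreated island in K562, against 2.69% of all uncovered length, and 54.1% against 4.78% in 2A3. Gained length was also weaker than kept length in K562, at 37.5 against 73.9 reads per kb in the aphidicolin list. The corresponding values in 2A3 were 36.2 and 53.9 reads per kb.

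Most gained length differed between the lines. Gained in both lines were 9.4 Mb, which is 21.8% of the K562 gain and 13.3% of the 2A3 gain. Lost in both were 1.91 Mb, 11.2% and 7.16% of each line's loss. A further 33.6% of the length gained in K562 was already inside an island of untreated 2A3, while 4.51% of the length gained in 2A3 was inside an island of untreated K562. Outside every island of the other line lay 44.5% of the K562 gain and 82.2% of the 2A3 gain. Both 2A3 lists are longer than both K562 lists, and the part of this in the shares was not tested.

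Change was then followed in 30353 windows of 100 kb, as the percent of each window inside islands. A window counted as rising or falling in a line when this percent moved by at least 20 percentage points, a rule of size with no test. In K562, 472 windows rose (1.56% of all) and 86 fell (0.283%). In 2A3, 803 rose (2.65%) and 95 fell (0.313%). In both lines 207 windows rose and 20 fell, and 2 moved in opposite directions. The 207 are 43.9% of the windows that rose in K562 and 25.8% of those that rose in 2A3. Of the 472 K562 windows, 396 (83.9%) had a change above 0 in 2A3, which 15.4% of all windows had. The latter share is low in part because 23061 of the 30353 windows had no change in either line. The smaller of a window's 2 changes was 20 points in the rising window nearest to the threshold, and 19.8 points in the nearest window outside it. For falling windows these were -20.4 and -19.8 points. The balance of rising to falling windows changed when the lists were trimmed to the covered length of the shortest. The trim kept islands in order of reads per kb, which left all 6693 islands of untreated K562 and 4267 of K562 with aphidicolin. In 2A3 it left 3401 untreated and 2973 aphidicolin islands. Gained length had fewer reads per kb than kept length, so list length and island density cannot be told apart in this trim. With all 4 lists so trimmed, 29 windows rose in both lines and 47 fell. Of the 207 rising windows, 105 then stayed above 0 in both lines and 2 lay below 0 in both, and 16 of the 20 falling windows stayed below 0 in both. Past 20 points in both lines remained 18 of the 207 and 7 of the 20. The median change of the 207 was then 11 points in K562 and 2.6 points in 2A3.

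**Figure D2:**
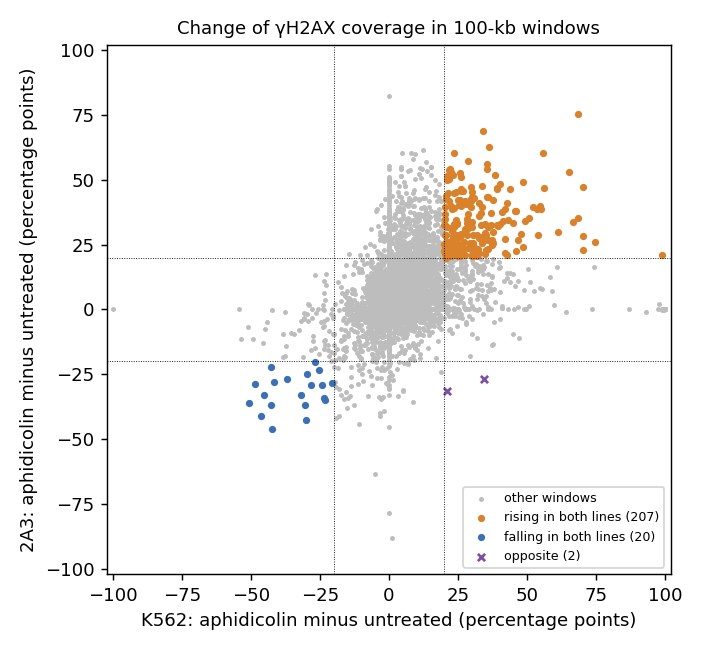
Change in the percent of a 100-kb window inside γH2AX islands (aphidicolin minus untreated, percentage points) in K562 (x axis) and 2A3 (y axis), 1 point a window with a change in either line (7292 windows), dotted lines at 20 points. The 207 windows rising in both lines (orange) outnumber the 20 falling in both (blue) and the 2 with opposite changes (crosses), at the full length of each list.

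A fit of all 4 libraries could not separate single windows from the spread between lines. limma with cell line as the block, over the 4896 windows covered in at least 2 libraries, called 0.0% rising and 0.0% falling at an adjusted p of 0.05, and the smallest adjusted p was 0.296. At an unadjusted p of 0.05, 581 windows were higher and 87 lower. edgeR on the reads in islands also called 0 windows in either direction (7 higher and 23 lower unadjusted), and DESeq2 called 1 rising and 11 falling. The fit has 1 residual degree of freedom per window.

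The 10 rising windows with the largest smaller change in the 2 lines lay on chromosomes 16, 7, 15, 1, 2 and 3. Their positions are on hg19, and no gene is named since no annotation of that build was used here. With the lists at equal covered length, 4 of the 10 stayed past 20 points in both lines: those on chromosomes 16 and 15 and, on chromosome 1, those from 121300001 and 37000001. The smaller change of the 6 others was then between 0.0 and 19.0 points, with 19.0 at chromosome 7 from 134000001 and at chromosome 2 from 149800001, 6.0 at chromosome 7 from 132300001, 2.0 at chromosome 2 from 160000001, and 0.0 at chromosome 1 from 50800001 and chromosome 3 from 43200001. The first was chromosome 16, 70900001 to 71000000, where coverage went from 3.0% to 71.4% in K562 and from 9.4% to 84.8% in 2A3. In sets 1 and 2 this window was at 0, 0, 0 and 6.8% in the untreated libraries and at 23.8, 59.2, 93.6 and 78.4% in the aphidicolin ones, which did not overlap (limma adjusted p = 0.0144). The second, chromosome 7, 134000001 to 134100000, was at 0% in both untreated lists and reached 55.8% in K562 and 60.4% in 2A3. Its untreated values in sets 1 and 2 were 1.8, 0, 2.8 and 4.6%, and its aphidicolin values 55.4, 66.6, 39.6 and 28.8% (limma adjusted p = 0.0079). Both windows were thus low without aphidicolin and high with it in all 12 libraries.

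Another window with this pattern, chromosome 1, 50800001 to 50900000, went from 0% to 44.0% in K562 and from 5.2% to 51.6% in 2A3. In sets 1 and 2 its untreated libraries lay between 0 and 14.4% and its aphidicolin libraries between 47.2 and 68.8% (limma adjusted p = 0.003). At chromosome 1, 37000001 to 37100000, K562 went from 2.6% to 57.2% and 2A3 from 36.2% to 76.2%. All 4 untreated libraries of sets 1 and 2 were at 0% there, and the aphidicolin libraries lay between 36.2 and 67.4% (limma adjusted p = 0.0075). At chromosome 3, 43200001 to 43300000, K562 went from 7.0% to 49.8% and 2A3 from 11.2% to 52.2%. The change was smaller in sets 1 and 2, from 0% in every untreated library to between 2.8 and 21.6% (limma adjusted p = 0.0348).

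Of the other 5, 4 did not pass the test in sets 1 and 2 and 1 could not be tested there. At chromosome 7, 132300001 to 132400000, coverage went from 0% to 70.4% in K562 and from 19.2% to 66.2% in 2A3. In sets 1 and 2 it went from 0.95% ± 1.90 to 31.9% ± 28.1 (SD, n = 4 each, limma adjusted p = 0.0576), with all 4 aphidicolin libraries above all 4 untreated ones. At chromosome 2, 160000001 to 160100000, the values were 0% and 40.2% in K562 and 3.0% and 51.4% in 2A3. Sets 1 and 2 had 0% in every untreated library there and 31.6, 35.8, 10.0 and 0% with aphidicolin (limma adjusted p = 0.0598). Chromosome 2, 149800001 to 149900000, went from 0% to 56.0% in K562 and from 28.2% to 75.0% in 2A3, yet held no γH2AX island in any of the 8 libraries of sets 1 and 2 and so was not tested.

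That window and the remaining 2 lie within 1 Mb of a stretch of at least 1 Mb with no island in any list. Chromosome 15, 20500001 to 20600000, went from 0% to 65.2% in K562 and from 16.8% to 69.8% in 2A3. There the 2 other sets disagreed: set 1 had 17.2 and 10.0% without and 59.0 and 78.2% with aphidicolin, and set 2 had 34.2 and 40.2% without and 0 and 1.2% with it. Chromosome 1, 121300001 to 121400000, went from 0% to 48.6% in K562 and from 0% to 49.0% in 2A3, whereas in sets 1 and 2 it was at 14.1% ± 15.8 without and 4.35% ± 8.70 with aphidicolin (SD, n = 4 each, limma adjusted p = 0.252). These windows on chromosomes 15 and 1 also held islands of a macroH2A1.2 library of K562 with the hairpin sh-mH1.2, described below. It covered 24.4% of the chromosome 15 window and 56.8% of the chromosome 1 window, against a mean of 0.78% over all windows. Within 1 Mb of such an island-free stretch lay 5 of the 207 rising windows (2.42%) and 20.8% of all windows. The 20.8% includes windows inside the stretches, which hold no island and could not rise, so the 2 shares are not a like comparison. Besides the windows at chromosome 1 from 121300001 and chromosome 7 from 134000001, only 2 rising windows were at 0% in both untreated lists. They were chromosome 5 from 32600001 (22.4% in K562 and 26.2% in 2A3 with aphidicolin) and chromosome 6 from 159600001 (21.8% and 53.6%).

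Rising windows were mostly isolated. They formed 171 stretches, of which 140 were a single window. The longest, of 4 windows each, were both on chromosome 7. Over 131200001 to 131600000, mean coverage went from 3.65% to 33.6% in K562 and from 20.1% to 62.3% in 2A3. In sets 1 and 2 that stretch was at 0 to 3.95% without and at 21.4 to 50.1% with aphidicolin. Over 155900001 to 156300000, K562 went from 7.85% to 36.8% and 2A3 from 53.6% to 85.0%, but the aphidicolin libraries of sets 1 and 2 reached only 1.85 to 11.7%, from 1.1 to 5.35% untreated. The next, of 3 windows at chromosome 6, 37500001 to 37800000, went from 3.8% to 28.1% in K562 and from 37.9% to 73.6% in 2A3, and in sets 1 and 2 from at most 2.27% to between 37.5 and 88.7%.

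The rising windows were unevenly spread over chromosomes. Chromosome 1 held 71, chromosome 7 held 48, chromosome 6 held 24 and chromosome 3 held 19, together 78.3% of the 207, while these chromosomes hold 25.6% of all windows. Untreated coverage was uneven too. In K562 it was 2.61, 3.12, 2.34 and 2.18% on chromosomes 1, 7, 6 and 3, against 1.27% of the span. In 2A3 it was 7.29, 7.95, 4.76 and 3.27%, against 3.0%. All windows are therefore not a like background. Chromosome 22, at 4.35% and 10.0% untreated, held 3 rising windows. The part of untreated coverage in the spread was not tested. The share of windows that rose in both lines was highest on chromosome 7 (3.02%), followed by chromosome 1 (2.85%) and chromosome 21 (2.08%). It was 0 on 11 chromosomes, namely 4, 8, 9, 11, 12, 13, 14, 17, 19, 20 and X, which hold 13282 windows. Chromosome 13 was lower with aphidicolin in both lines, from 0.0919% to 0.0714% covered in K562 and from 0.273% to 0.191% in 2A3. On 19 of 23 chromosomes the covered share was higher with aphidicolin in both lines. Within chromosome 7, the 10 Mb from 130000001 to 140000000 held 17 rising windows, the most of any 10-Mb bin, and went from 3.56% to 16.1% in K562 and from 12.97% to 25.03% in 2A3. The 10 Mb of chromosome 1 from 30000001 held 11, and went from 2.54% to 10.9% and from 17.0% to 34.5%. The copy number of these chromosomes in the lines was not measured in the lists.

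The 207 windows were looked up in the 8 K562 libraries that played no part in choosing them. Their untreated libraries covered a mean of 1.55% ± 0.471 of these windows and their aphidicolin libraries 40% ± 11.7 (SD, n = 4 each), and the lowest aphidicolin library (23.2%) lay above the highest untreated one (2.1%). Over all windows the same libraries covered 2.3% ± 0.383 and 5.83% ± 2.42. The median of the 207 was 0% in each untreated library of sets 1 and 2 and 40.8, 50.4, 43.2 and 17.4% in the aphidicolin ones. In set 3, which chose the windows, medians went from 2.6% to 33.8% in K562 and from 23.2% to 60.8% in 2A3, so untreated 2A3 already had γH2AX over part of them. The median difference in sets 1 and 2 was 39.8 points over the 201 windows that could be tested, and 5.7 points over all 13087 windows tested.

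limma with title set as a term called 123 of the 207 rising and 0 falling at an adjusted p of 0.05, with 6 of the 207 covered in too few libraries to be tested. Over all 13087 windows tested it called 17.6% rising and 7.87% falling. In 141 of the 207 windows all 4 aphidicolin libraries lay above all 4 untreated ones, and in 1 all lay below. Over all 30353 windows, tested or not, these were 3309 (10.9%) and 1296 (4.27%). That base includes windows covered in too few libraries to be tested, so it is wider than the 13087 windows of the fit and lowers these shares. With each list trimmed to equal covered length the fit called 44 of the 207 rising, and 159 had a difference above 0. Over all 8167 windows tested at that length it called 521 rising and 862 falling. Without untreated replicate 1 of set 1 it called 74 of the 207 rising, and 703 of all 12600 windows tested. Without untreated replicate 2 of set 1 it called 68 of the 207, and 584 of all 12382.

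**Figure D3:**
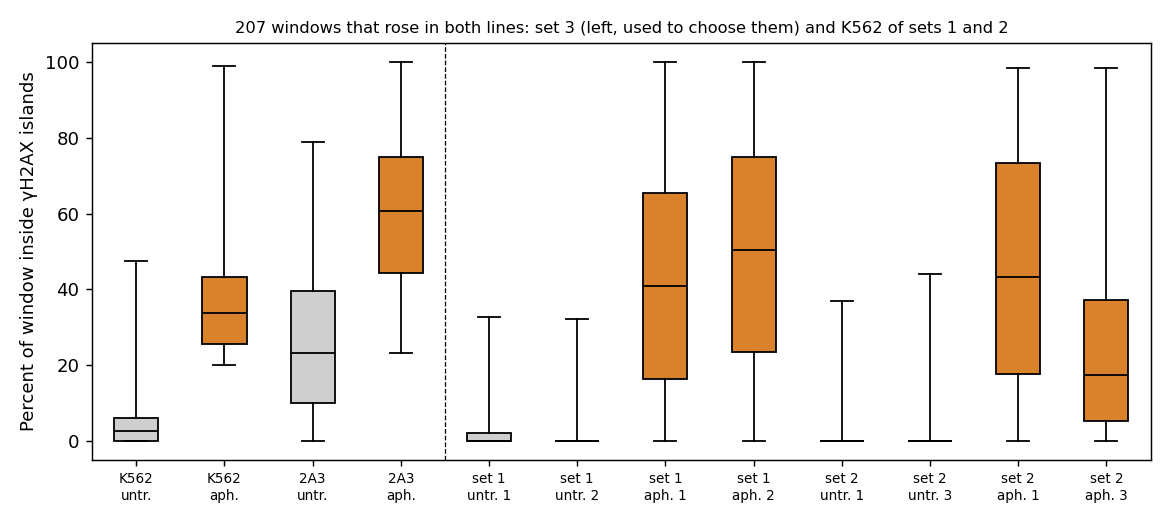
Percent of each of the 207 windows rising in both lines that lay inside γH2AX islands, by library (box: quartiles with the median, whiskers: lowest and highest window, untreated in grey and aphidicolin in orange). The 4 boxes left of the dashed line chose the windows. Right of it, the untreated K562 libraries of sets 1 and 2 have medians of 0% and the aphidicolin libraries medians of 17.4 to 50.4%.

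Windows that rose by 20 points in 1 line alone were also higher with aphidicolin in sets 1 and 2. Most of them rose by less in the other line too. Of the 265 that passed in K562 alone, 189 had a smaller rise in 2A3. Of the 596 that passed in 2A3 alone, 383 had a smaller rise in K562. For the 265 that rose by 20 points in K562 but not in 2A3, mean coverage in sets 1 and 2 went from 4.45% ± 0.93 to 40.8% ± 12.9 (SD, n = 4 each), and 148 (55.8%) were called rising. For the 596 that rose in 2A3 but not in K562 of set 3, it went from 0.726% ± 0.335 to 31.8% ± 13.4, and 296 (49.7%) were called rising. Of all 30353 windows, tested or not, 7.6% were called rising in that fit. Many windows with a rise in 2A3 alone had thus risen in K562 of the other sets. The median of these 596 in K562 of set 3 itself went from 0% to 7.3%.

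The 20 falling windows lay near chromosome ends. Within 5 Mb of an end were 18 of the 20, 10.1% of the rising windows and 6.84% of all windows, and 13 of the 20 were within 1 Mb. Only a window at least 20% covered in both untreated lists could fall by 20 points, and such coverage was itself concentrated at ends. Mean untreated coverage was 34.0% in K562 and 54.1% in 2A3 within 1 Mb of an end, and 0.662% and 1.57% beyond 20 Mb. The share of all windows is therefore not a like background for the falling ones. At the full length of the lists, the largest fall in both lines was at chromosome 3, 700001 to 800000, from 87.2% to 45.0% in K562 and from 59.6% to 13.4% in 2A3. With the next window it formed the only falling stretch of more than 1 window, which went from 83.8% to 47.9% and from 54.6% to 19.0%. The 8 libraries of sets 1 and 2 had no island in that stretch. Chromosome 3, 1000001 to 1100000, went from 70.2% to 27.4% and from 46.0% to 9.0%, again with 0% in all 8 other libraries. Both windows were therefore covered only in set 3. At equal covered length neither stayed past 20 points in both lines, with a smaller change of -6.6 points for the window from 700001 and -1.6 points for that from 1000001. Chromosome 20 from 100001 was then at -60.0 points, and the windows on chromosomes 10, 15 and 19 also stayed past 20 points. The other 4 of the 10, on chromosome 2 (from 243000001 and from 700001), chromosome 1 (from 248100001) and chromosome 3 (from 3900001), were at -19.2, -16.4, -14.6 and 0.0 points.

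Other named falling windows lay at the ends of chromosomes 20, 2, 15, 10, 19 and 1. Chromosome 20, 100001 to 200000, went from 78.8% to 32.6% in K562 and from 84.6% to 43.4% in 2A3. In sets 1 and 2 it was at 4.15% ± 5.04 without and 24.0% ± 32.8 with aphidicolin (SD, n = 4 each, limma adjusted p = 0.2318). Chromosome 2, 243000001 to 243100000, went from 84.4% to 33.6% and from 89.8% to 53.6%, with 2.7% ± 2.41 and 15.0% ± 7.39 in sets 1 and 2 (SD, n = 4 each, limma adjusted p = 0.0612). Chromosome 15 from 102200001, chromosome 10 from 200001, chromosome 2 from 700001 and chromosome 19 from 59000001 fell by 28.2 to 45.4 points in both lines, and were at 0% in every untreated library of sets 1 and 2. Of the 10 windows with the largest fall, 2 also fell in sets 1 and 2. Chromosome 1, 248100001 to 248200000, went from 70.0% to 21.4% and from 66.4% to 37.8% in set 3, and from 33.7% ± 19.98 to 1.00% ± 2.00 in sets 1 and 2 (SD, n = 4 each, limma adjusted p = 0.043). Chromosome 3, 3900001 to 4000000, went from 38.2% to 7.8% and from 36.8% to 0%, and from 15.4% ± 11.9 to 0% (limma adjusted p = 0.0479). Over all 20, limma in sets 1 and 2 called 4 falling and 1 rising, with 7 not tested, where 7.87% and 17.6% of all windows tested were called.

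The fall at chromosome ends was also seen in the mean of the outermost megabase, though not at every end. In the 436 windows within 1 Mb of an end, mean coverage went from 34.0% to 29.1% in K562 and from 54.1% to 46.6% in 2A3. Between 1 and 2 Mb from an end it moved from 5.86% to 5.48% and from 20.8% to 21.1%. Farther in it was higher with aphidicolin in both lines, for example 1.69% and 3.06% in K562 and 6.04% and 9.51% in 2A3 between 3 and 5 Mb. Over the last 2 Mb of the 41 chromosome arms with an end in the lists, coverage was lower in both lines on 28 and higher in both on 2. On chromosome 1, coverage of the last 2 Mb of the long arm went from 48.0% to 32.6% in K562 and from 61.9% to 45.3% in 2A3. On chromosome 3 the first 2 Mb of the short arm went from 69.5% to 42.5% and from 46.8% to 31.8%. The end of the long arm of chromosome 16 was an exception, at 11.7% and 13.1% in K562 and 43.4% and 48.2% in 2A3. Averaged over both lines, the long-arm ends changed by -2.39 points over the last 2 Mb and by -5.34 over the last 1 Mb, but by 0.98 over the last 5 Mb.

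The K562 libraries of sets 1 and 2 had the opposite direction. There the outermost megabase was at 2.24 to 2.78% in the untreated libraries and 5.18 to 23.6% in the aphidicolin ones. The mean change was -6.26 points in the 2 lines of set 3 and 12.28 points over the 4 aphidicolin libraries of sets 1 and 2, each taken against the untreated mean of its set, which both libraries of a set share. The means differ by -18.54 points, a contrast chosen after the values were seen and not tested. The untreated lists of set 3 therefore started far higher at chromosome ends than those of sets 1 and 2, in K562 as in 2A3. Set and library preparation cannot be told apart here.

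**Figure D4:**
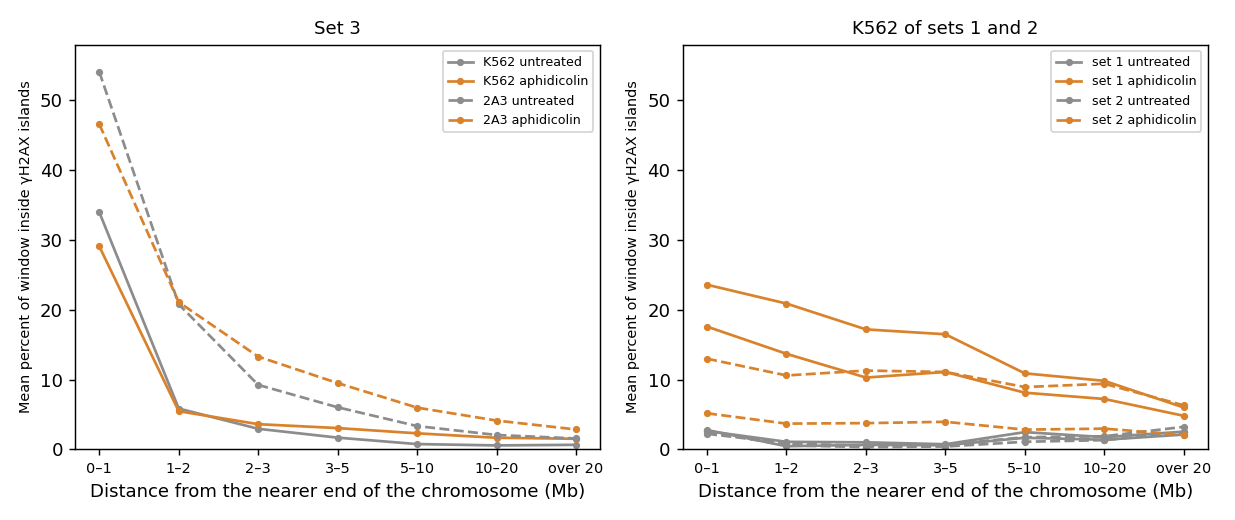
Mean percent of 100-kb windows inside γH2AX islands by distance from the nearer chromosome end (Mb), for the 4 libraries of set 3 (left, solid lines K562 and dashed lines 2A3) and the 8 K562 libraries of sets 1 and 2 (right, 1 line a library). In set 3 the untreated lists (grey) lie above the aphidicolin lists (orange) in the outermost megabase, at 34.0% against 29.1% and 54.1% against 46.6%, and in sets 1 and 2 below them.

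Length gained in both lines lay largely in chromatin that carries macroH2A1 in K562. Inside macroH2A1 islands of untreated K562 lay 52.3% ± 0.824 of it (SD over n = 2 macroH2A1 libraries), against 18.6% ± 0.673 of the length lost in both lines, 35.9% ± 1.07 of the length in all 4 lists and 11.1% ± 0.265 of the whole span. For macroH2A1.2 the shares were 35.5% ± 1.37 of gained, 17.5% ± 2.37 of lost and 30.3% ± 1.67 of the length in all 4 lists, against 8.69% ± 1.03 of the span (SD, n = 2). The overlap was not particular to gained length. Of all length in both aphidicolin lists, gained or not, 48.1% ± 1.15 was inside untreated macroH2A1 islands and 37.3% ± 1.08 inside untreated macroH2A1.2 islands (SD, n = 2). With macroH2A islands from cells given aphidicolin, the shares of the gained length were 61.5% ± 1.22 for macroH2A1 and 49.5% ± 0.477 for macroH2A1.2 (SD, n = 2). Within K562, untreated macroH2A1 islands held 43.7% of gained, 32.8% of kept and 24.1% of lost length, and untreated macroH2A1.2 islands 33.9, 28.0 and 21.2%. Within 2A3, gained and kept length were close: macroH2A1 islands held 53.2% of gained, 50.0% of kept and 33.2% of lost length, and macroH2A1.2 islands 34.7, 36.5 and 24.5%. No macroH2A library of 2A3 was analysed here, so the 2A3 values place its γH2AX on the macroH2A map of K562.

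The macroH2A1.2 islands of the hairpin libraries, both from K562 without aphidicolin, were also laid over the gained length. In K562 with the control hairpin sh-RFP, 52.1% of the length gained in both lines was inside macroH2A1.2 islands, and with the hairpin sh-mH1.2 2.31% was (1 library each, 13.8% and 0.781% of the span). These shares are 3.78 and 2.95 times those of the span. The sh-mH1.2 list was short as a whole, so its low share is not particular to gained length. Of the length in all 4 γH2AX lists, 14.4% was inside islands of the sh-mH1.2 library. Of the 207 rising windows, 41 (19.8%) held an island of that library, as did 5 of the 20 falling windows and 7.51% of all windows. Without these windows 166 rose and 15 fell in both lines. The sh-mH1.2 library also covered part of some named rising windows that stayed past the threshold at equal covered length. Its coverage was 56.8% at chromosome 1 from 121300001, 24.4% at chromosome 15 from 20500001 and 7.4% at chromosome 16 from 70900001. It was 0% at chromosome 1 from 37000001 and in the other named rising windows. The part of this signal in their rise was not tested.

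**Figure D5:**
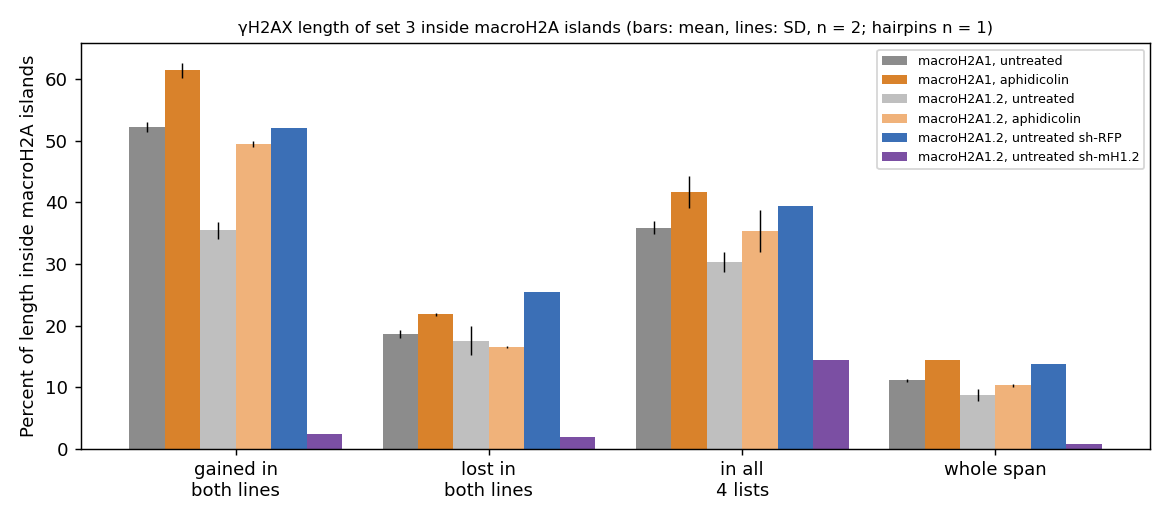
Percent of γH2AX length of set 3 (gained in both lines, lost in both lines, in all 4 lists) and of the whole span that lay inside islands of each kind of macroH2A library of K562 (bars: mean, lines: SD, n = 2, and n = 1 for the hairpins). Gained length stands at 52.3% for untreated macroH2A1 and 35.5% for untreated macroH2A1.2, lost length at 18.6% and 17.5%.

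MacroH2A1.2 coverage of the 207 rising windows was itself higher with aphidicolin. Its mean over these windows was 36.5% ± 1.72 in untreated and 56.3% ± 0.367 in aphidicolin libraries of K562 (SD, n = 2 each), against 8.69% ± 1.03 and 10.3% ± 0.259 over all windows. macroH2A1 went from 56.1% ± 0.989 to 66.7% ± 1.66, against 11.1% ± 0.265 and 14.4% over all windows. limma called 91 of the 207 rising and 7 falling for macroH2A1.2, where 15.3% and 6.78% of all windows tested were called. For macroH2A1 it called 20 rising and 0 falling, where 6.76% and 0.11% of all windows tested were called. The macroH2A1 share is near its background. With 2 libraries a group these calls were fragile: leaving out aphidicolin replicate 1 or 3 or untreated replicate 1 left 0 of the 91, leaving out untreated replicate 3 left 50, and each of the 4 libraries left out left 0 of the 20. The number with a difference above 0 lay between 157 and 171 for macroH2A1.2 and between 159 and 172 for macroH2A1 in these fits. The matching numbers over all windows are not given here. In the fits of all 4 libraries the median difference for macroH2A1.2 was 21.0 points in the rising windows and 1.5 points over all windows tested. For macroH2A1 it was 7.8 and 4.9 points.

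MacroH2A1.2 was also read in the windows that rose in 1 line alone. Windows that rose in K562 alone went from 34.5% ± 1.62 to 39.3% ± 0.801 covered by macroH2A1.2, and those that rose in 2A3 alone from 39.8% ± 0.466 to 53.0% ± 1.11 (SD, n = 2 each). The falling windows were low throughout, at 7.94% ± 2.53 and 8.29% ± 0.0424 for macroH2A1.2 and 6.67% ± 0.417 and 7.74% ± 0.205 for macroH2A1 (SD, n = 2 each), below the mean of all windows. The differences between these groups of windows were not tested.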

How the data were processed

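Nuclei of crosslinked cells were treated with micrococcal nuclease and sonicated before immunoprecipitation, per the labels' protocols. The authors deposited, for each library, a list of islands with the count of reads in each (whole numbers, not scaled). The submitters' processing notes list Bowtie2 2.1.0, SICER 1.1, deepTools and hg19 but not what each was used for. The names of the deposited lists carry a 200-bp window, a 600-bp gap and a false discovery rate of 0.01. The 14 input samples were not analysed here.

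Bases were compared on the 200-bp grid. Windows of 100 kb were fitted on their covered percent with limma 3.58.1 if covered in at least 2 libraries, and p was adjusted by Benjamini-Hochberg over all windows tested. Line was the block in set 3 and title set a term in sets 1 and 2. No annotation of hg19 was used, so no gene is named. edgeR 4.0.16 and DESeq2 1.42.0, on reads spread evenly over islands and rounded, were alternatives. The fits were tested on simulated data. Named were the 10 windows each way with the largest smaller change of the 2 lines, the 3 longest stretches, windows at 0% untreated and the extreme chromosomes. The windows, rules and lists were chosen with earlier results of these data known. The macroH2A fits and the groups rising in 1 line were added after seeing the data.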

Additional observations from a re-analysis of the deposited data

Results flagged for a closer look

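Mean γH2AX coverage of the outermost 1 Mb of chromosomes changed by -4.98 points in K562 and by -7.55 points in 2A3 of set 3 under aphidicolin, while each of the 4 aphidicolin libraries of sets 1 and 2 lay above the untreated mean of its set, by 2.76 to 20.88 points. The difference between the sets was not tested.

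A pair of windows moved in opposite directions in the lines, which was not tested. Chromosome 2, 89800001 to 89900000, changed by 21.2 points in K562 and by -31.6 points in 2A3, and the 8 libraries of sets 1 and 2 lay between 0 and 5.0% there. Chromosome 7, 128900001 to 129000000, changed by 34.4 points in K562 and by -26.8 points in 2A3. It was at 84.6% in aphidicolin replicate 1 of set 2 and between 0 and 11% in the 7 other libraries of sets 1 and 2.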

How the results depend on the processing

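The increase with aphidicolin kept its direction under all 7 alternatives. For covered length the log2 ratio lay between 0.55 and 0.74, which includes each line alone (0.74 in K562 and 0.57 in 2A3). The number of islands and the reads in islands, used in place of covered length, each gave 0.36. Rising and falling windows in both lines numbered 29 and 47 at equal covered length, 651 and 95 at 10 points, 3 and 0 at 50 points, 486 and 68 in 50-kb windows, and 1 and 0 in 1-Mb windows. Rising windows numbered 71 with the denser 50% of islands (reads per kb), and falling windows 2 without those within 5 Mb of an end (an alternative added after seeing the data). In set 3, DESeq2 called 1 rising and 11 falling window, and limma and edgeR called 0 under every other setting. In sets 1 and 2, limma called 2308 rising and 1030 falling windows. The replicate block gave 811 and 467, but same-numbered libraries did not deviate together (correlations -0.067 and 0.132). Equal covered length gave 521 rising and 862 falling, so falling calls then outnumbered rising ones. edgeR gave 3888 and 1803. Leaving out a library gave 584 to 4109 rising and 514 to 958 falling, and every library moved the rising count by over 1.5 times. Of the 207 rising windows, 44 were called at equal covered length, 85 with the replicate block and 68 to 144 with a library left out. For macroH2A1.2 leaving out a library gave 0 to 50 of them, and for macroH2A1 0. Gained length inside macroH2A1.2 and macroH2A1 was 49.5% and 61.5% with aphidicolin macroH2A lists, and 45.6% and 61.6% at equal covered length. The change at long-arm ends was -5.34 points over the last 1 Mb, 0.98 (reversed) over the last 5 Mb and -5.34 at equal covered length. Of the 20 named windows, 8 stayed past 20 points in both lines at equal covered length, 14 with the upper 50% of islands and 20 with islands of at least 2000 bp.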

Other observations

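Some chromatin was covered by γH2AX in all 4 libraries of set 3 whether or not aphidicolin was given. At least 80% of the window lay inside islands in all 4 lists in 71 windows, which formed 39 stretches, and 26 of the 71 held an island of the sh-mH1.2 macroH2A1.2 library. On chromosome 3, 100001 to 500000, mean coverage was 98.1, 98.0, 98.1 and 95.3% in set 3 (K562 untreated and with aphidicolin, then 2A3 in the same order), and 0% in all 8 γH2AX libraries of sets 1 and 2. On chromosome 22, 22300001 to 22600000, the 4 libraries of set 3 lay between 93.8 and 100.0%. The aphidicolin libraries of sets 1 and 2 lay between 99.7 and 100.0% there and the untreated ones at 0%, and the sh-mH1.2 library covered 99.6% of it. These stretches were picked after their values were seen.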
